A study of Arabidopsis thaliana with 12 samples.

Results

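The mRNAs of *eif3k* mutant seedlings were sorted by how far they were loaded with ribosomes, and the loading is described here gene by gene and group by group. The comparison was polysomal mRNA (PL) against non-polysomal mRNA (NP) within the mutant, which took 6 of the 12 arrays of the series, 3 replicates for each fraction. All 22746 non-control probe sets of the 22810 on the Affymetrix ATH1 array entered the comparison. The plants were *Arabidopsis thaliana* of the Columbia ecotype, and the aerial tissue of 11-day-old seedlings grown on agar medium with sucrose was collected. The mutant differed by a T-DNA that interrupts an intron of AT4G33250, the eIF3k gene, and it is a single insertion line whose remaining transcript is shortened at its 3′ end. The wild-type (WT) arrays, 3 replicates for each fraction, had no insertion and otherwise the same tissue and age. Labels and methods disagree on whether the light was a long day or continuous.

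A ribosome loads onto an mRNA when initiation factors bring the small subunit to its 5′ end. eIF3 is the largest of these factors, and eIF3k is one of its non-core subunits. An mRNA that is initiated often carries many ribosomes and sediments deep in a sucrose gradient. An mRNA that is free, stored or bound only by a small subunit or a single ribosome stays nearer the top. Leaf tissue adds a second translation system, the bacterial-type ribosomes of the plastid, which translate the genes of the plastid genome.

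The lower fractions of each gradient had been pooled as PL and the upper ones as NP, so each replicate gave a pair of samples from 1 lysate. By the methods of the study NP held mRNA with a single ribosome as well as free mRNA, so NP is not the same as untranslated. The paper expects low values for very short mRNAs, which have room for few ribosomes. Translation state (TL) means the log2 signal in PL less that in NP of one replicate, so a TL of 1 is a signal 2-fold higher in PL. The arrays had been normalized to each other, and a TL of 0 does not mean that an mRNA was split equally. TL is a mean over all cells of the tissue, so loading that differs between cell types and loading that differs within them cannot be told apart. Probe sets with a mean log2 signal of at least 5 over the 6 arrays are called measured below, which were 7327. A further 6880 lay within 0.1 of the lowest deposited signal on all 6 arrays and hold no ratio. TL was tested against 0 with limma, and calls required both an adjusted p under 0.05 and a mean TL of at least 1 in size.

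The 6 arrays had median log2 signals of 3.26 to 3.37. Replicates 1 and 2 were hybridized as array batch 1 and replicate 3 as batch 2. Over the measured probe sets, which are not independent points, TL correlated (Pearson's r) at 0.930 between replicates 1 and 2 and at 0.837 and 0.843 between these and replicate 3. The 3′ probe sets of GAPDH exceeded its 5′ probe sets by 7.27, 7.52 and 6.65 (log2) in NP of replicates 1, 2 and 3 and by 5.56, 5.59 and 6.65 in PL, so in batch 1 the fractions differed in this sign of RNA integrity. For ubiquitin the excess was 2.18, 2.24 and 2.92 in NP and 1.79, 1.79 and 2.66 in PL, while for actin it was lower in NP (6.40, 6.56 and 6.34) than in PL (7.27, 7.44 and 6.76). The part of these differences in TL was not tested. WT replicate 3 stood apart from the rest of the series, with an r of 0.433 to 0.450 to the mutant replicates, where the other WT replicates gave 0.811 to 0.938. Of 5 markers of aerial tissue on the array, RBCS1A and RCA were among the bright signals, GL1 (named MYB0 in the table) and STM lay below the limit of 5 and CLV3 at the floor. The root genes PLT1, RHD6, EXP7, COBL9 and NRT2.1 lay at the floor on all 6 arrays, although SCR and PYK10, fixed as root markers too, gave signal.

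The targeted mRNA, eIF3k, gave log2 signals in NP of 7.30, 7.93 and 8.05 in the mutant and 9.26, 9.45 and 9.01 in WT. In PL the values were 7.17, 7.06 and 7.63 in the mutant and 8.61, 8.89 and 7.28 in WT. The mutant was lower in both fractions except in the PL pair that holds WT replicate 3. The position of the probes relative to the T-DNA is unknown, and an intact mRNA is therefore not what these signals measure. Within the mutant the TL of the remaining eIF3k transcript was -0.13, -0.87 and -0.42, a mean of -0.47 (SE 0.19) that was not called (adjusted p = 0.172 in limma).

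The mutant had mRNAs at both ends of the scale in similar numbers. Of all probe sets, 1340 (5.89%) were called above 0 and 1177 (5.17%) below 0, and of the measured ones 1109 (15.1%) and 849 (11.6%). All 2517 calls had the same sign in 3 of 3 replicates, which the threshold makes likely by itself, and the median SD between replicates was 0.33 for called and 0.29 for measured probe sets. The middle of the distribution was narrow. The median TL of the measured probe sets was 0.10, the quartiles were -0.50 and 0.71, and the 5th and 95th percentiles were -1.54 and 1.56. The lower tail reached further than the upper one near its end, with -2.60 at the 1st percentile and 2.17 at the 99th. The counts rest on 3 TL values for each probe set and on the variance that limma shares between probe sets of like signal. With neither the trend with signal nor the robust prior 180 were called above 0 and 121 below, and with the array batch as a term, or without any single replicate (1, 2 or 3), the count was 0 in both directions, although 6466 probe sets with the batch term and 4124, 4255 and 5670 without replicate 1, 2 and 3 still had an unadjusted p under 0.05.

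**Figure D1:**
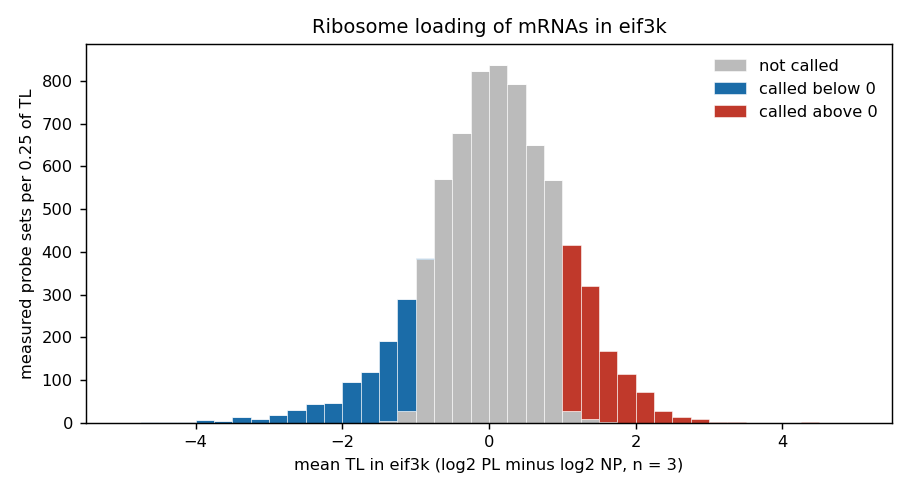
Mean TL (log2 PL minus log2 NP, 3 replicates) of the measured probe sets of *eif3k* on the horizontal axis, in equal bins, and the number of probe sets on the vertical axis, with called probe sets in colour. The median lies at 0.10, and 1109 of the 7327 measured probe sets are called above 0 and 849 below.

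Genes chosen as extreme in array batch 1 mostly kept their sign in batch 2. TL was at least 1 in both replicates of batch 1 for 1046 measured probe sets, and of these 1020 were above 0 in replicate 3 and 654 again reached 1. Of 686 probe sets at -1 or lower in both replicates of batch 1, 681 were below 0 in replicate 3 and 526 again reached -1. A lower share at 1 is what choosing on the first replicates gives by itself, and the SD of TL was 0.959, 1.10 and 0.954 in replicates 1, 2 and 3. Over all measured probe sets the share above 0 in replicate 3 was 51.5%, and the share below was 47.6%. Spread and calls also varied with signal. At a mean log2 signal between 5 and 6 the median TL was 0.03, with 10.3% called above 0 and 9.55% below. Between 9 and 10 it was 0.32, with 24.2% above and 14.8% below, and from 13 to 16, where 32 probe sets lie close to the top of the scale, it was 0.04 with 3.12% in each direction.

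The mRNA most enriched in PL was that of AT1G64370, a protein without an assigned function. Its log2 signals were 6.55, 5.97 and 5.97 in NP and 10.84, 10.72 and 9.87 in PL. The fractions lay far apart in every replicate, and the mean TL of 4.31 (SE 0.20, adjusted p = 0.00467) is a 19.9-fold higher signal in PL. The ranks that follow are among called, single-transcript nuclear probe sets of at least 5 (log2) in both fractions. Next came 3 further proteins annotated without a function, AT5G45350 (TL 3.27), AT4G34290 (3.08) and AT3G16670 (2.96). Among such probe sets, the highest gene of known function was PRPL11 (AT1G32990), a ribosomal protein of the plastid. It had 6.67, 6.74 and 6.30 in NP and 9.72, 9.82 and 8.93 in PL. No NP value of PRPL11 came near a PL value, and its TL was 2.92 (SE 0.16, adjusted p = 0.00467). GRF10, a 14-3-3 protein that binds phosphorylated partners, had a TL of 2.72, and MBD10, of the family that binds methylated DNA, had 2.69. The others of the 12 highest were LEA14 (2.57), a late embryogenesis abundant protein, FLA8 (2.55), an arabinogalactan protein of the cell wall, ATLP-1 (2.54), a thaumatin-like protein, the calcium-binding protein AT1G18210 (2.51) and NACA5 (2.49), a nascent polypeptide-associated complex subunit that meets new proteins at the ribosome exit. Adjusted p of all 12 lay between 0.00467 and 0.00492 in limma.

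The lowest mRNAs among the same kind of probe sets lay as far from 0 as the highest one. DI21 (AT4G15910), a drought-induced gene, had 9.44, 10.67 and 10.02 in NP and 5.56, 5.81 and 5.65 in PL. Its TL was -4.37 (SE 0.22, adjusted p = 0.00467), with a gap of several log2 units between the fractions in each replicate. DI19 (AT1G56280), a zinc-finger protein of the same kind of stress response, had 12.16, 12.93 and 13.11 in NP against 8.16, 8.17 and 8.90 in PL, a TL of -4.32 (SE 0.19, adjusted p = 0.00467). This mRNA was bright in both fractions. A minimum signal in both fractions was a condition for every gene ranked here, so this does not set DI19 apart. AAP2 (AT5G09220), an amino acid permease of the vascular tissue, had 10.61, 11.61 and 10.40 in NP and 7.30, 7.31 and 6.95 in PL, again with no overlap, and a TL of -3.69 (SE 0.23, adjusted p = 0.00467). LARP6a (-3.72) and LARP6b (-3.78), which belong to the La-related RNA-binding proteins, were both among the 12 lowest. ARFA1E (-3.52) encodes a small GTPase of vesicle traffic, EMB2820 (-3.84) an enzyme named for its embryo-lethal mutant, and AT5G66240 (-3.47) a WD-repeat protein. AT5G20700 (-3.97), AT5G47435 (-3.86) and AT4G32240 (-3.46) are given without a role, and the last of the 12 was the noncoding RNA GUT15 (-3.86). Among these 24 genes the difference between the genotypes ranged from -0.85 to 1.09 in TL and was called for none.

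**Figure D2:**
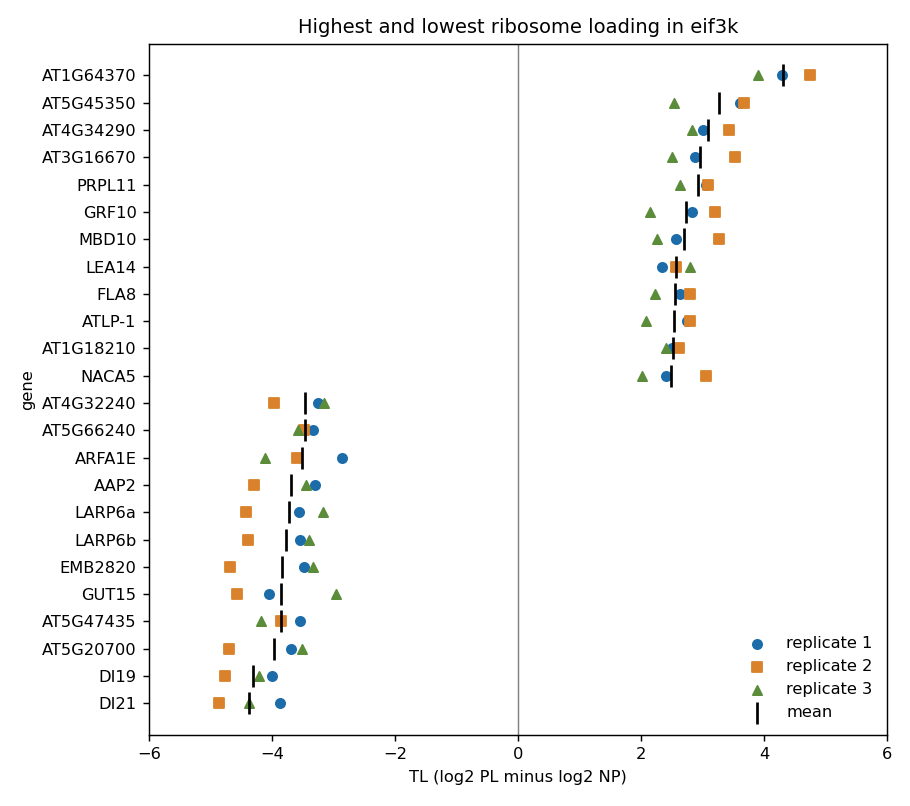
TL of the 12 highest and 12 lowest mRNAs of *eif3k* among called, single-transcript nuclear probe sets that are at least 5 (log2) in both fractions, with TL on the horizontal axis, a point for each replicate and a vertical tick for the mean. AT1G64370 lies at 4.31 and DI21 at -4.37, and the points of a gene keep to the same side of 0.

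A fraction at the floor allows only a bound. With NP at the floor in all 3 replicates, 2 probe sets were called above 0. BCCP2, a biotin carrier of plastid fatty acid synthesis, was at least 2.23-fold higher in PL, and the glutathione transferase GSTU26 at least 2.06-fold. PL lay at the floor for 4 probe sets called below 0, of which the organelle reading frames orf101b and orf240a were at least 6.44-fold and 5.95-fold lower in PL and the nuclear gene AT1G68110 at least 5.78-fold. Each bound takes the floor as the level of the dim fraction.

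Functional groups differed widely in where their mRNAs lay. The members of each group were taken from annotation, and its counts are to be read against 15.1% above 0 and 11.6% below 0 for all measured probe sets, whose median TL was 0.10. Among groups with at least 7 measured members, high medians belonged to histones, the nuclear-encoded ribosomal proteins of the plastid and the proteasome core, and low ones to plastid-encoded genes, SAUR genes, the circadian clock and noncoding or pseudogene transcripts. Of 17 mitochondrion-encoded probe sets 1 was measured. Over all 17, dim ones included, 6 were called below 0 and 0 above, where the shares of all probe sets were 5.17% and 5.89%. A further 60 organelle probe sets could not be assigned to a genome by name, with 7 called below 0 and 0 above. Group medians are over measured members unless stated, and the median over all probe sets of a group, dim ones included, was mostly nearer to 0. No test of one group against the rest was run, and the values describe these 3 replicates.

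**Figure D3:**
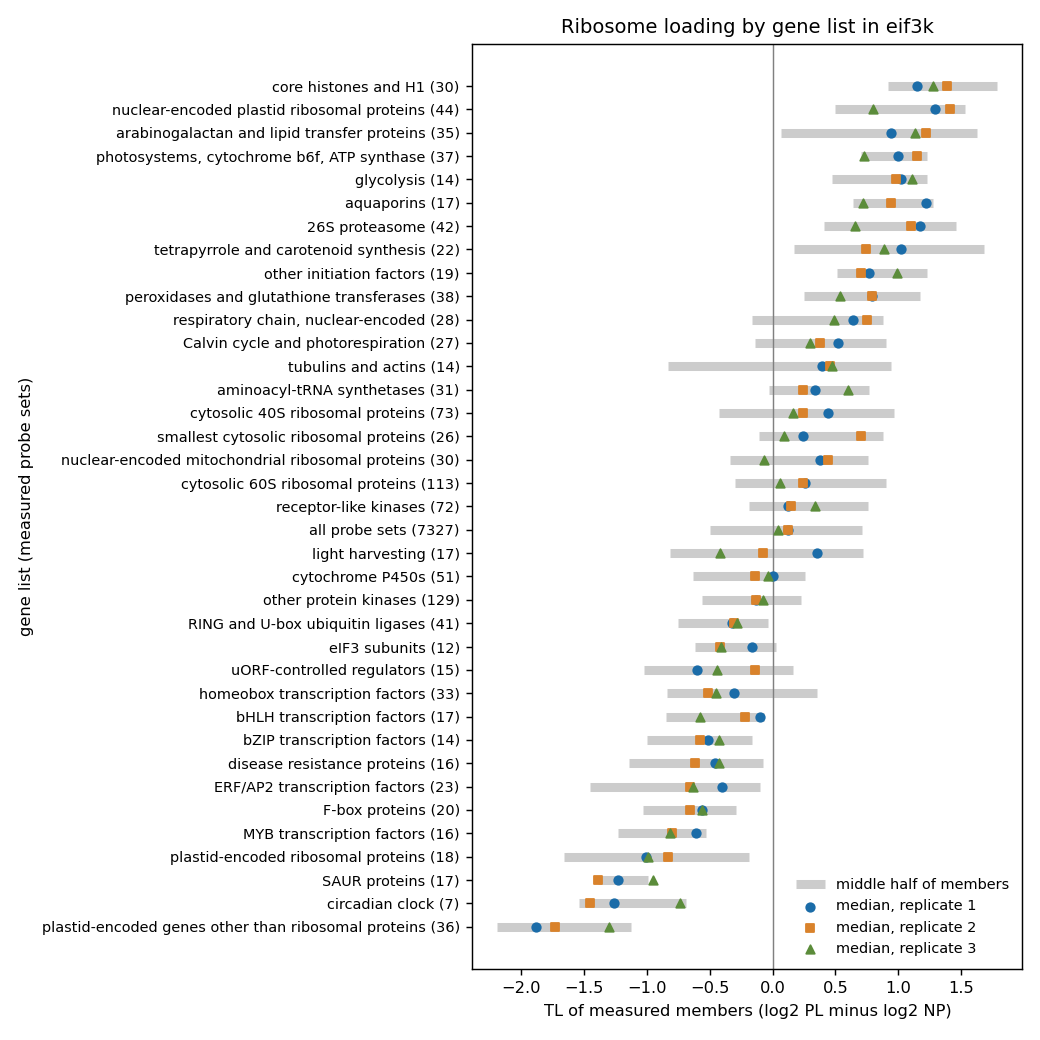
TL of the measured members of each gene group in *eif3k*, with TL on the horizontal axis and the group and its number of measured members on the vertical axis. Points are the medians in the 3 replicates, from 1.15 to 1.39 for histones and from -1.88 to -1.30 for plastid-encoded genes other than ribosomal proteins, and grey bars run between the quartiles of the members' mean TL.

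Histone mRNAs lay almost wholly on the PL side. Histones package DNA, and plants make most of their histone mRNA with a poly(A) tail, which the array can read. Of 30 measured members (40 on the array), 22 (73.3%) were called above 0 and 0 below, with a median of 1.27 and replicate medians of 1.15, 1.39 and 1.28. The calls were spread over the classes, with 8 of 12 for H2A, 5 of 7 for H2B, 5 of 5 for H3 and 4 of 5 for H4. An H3 gene, AT5G10390, was the highest, with 6.34, 6.18 and 5.62 in NP and 8.27, 8.41 and 8.20 in PL. Its fractions did not overlap, and its TL was 2.25 (SE 0.18, adjusted p = 0.00467). At the other end lay HTA9, an H2A variant of the H2A.Z type that is not tied to replication, with a TL of -0.53, -0.90 and -1.24 and a mean of -0.89 (SE 0.18, adjusted p = 0.0281), under the size limit. In WT the replicate medians of the group were 1.36, 1.42 and 1.29, where those of all measured probe sets were 0.06, 0.13 and -0.44. Other groups were not all this even in WT, where the 26S proteasome had 1.10, 0.91 and -0.34.

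The parts of the plastid ribosome that are encoded in the nucleus and in the plastid had median TL values on opposite sides of 0. The split was not complete, since 7 of 44 measured nuclear-encoded members had a mean below 0. Of 18 measured plastid-encoded members 2 had a mean above 0. Proteins of this ribosome come from both genomes, and the nuclear ones are made by cytosolic ribosomes and imported. Of 44 measured nuclear-encoded members, 25 (56.8%) were called above 0 and 0 below, with a median of 1.20 and replicate medians of 1.29, 1.41 and 0.80. Besides PRPL11 these included PRPL35 (TL 2.24, SE 0.17, adjusted p = 0.00467), with 7.80, 7.75 and 7.74 in NP and 10.07, 10.30 and 9.65 in PL. Of 18 measured plastid-encoded members, 1 was called above 0 and 7 (38.9%) below, with a median of -0.82 and replicate medians of -1.01, -0.83 and -0.99. The lowest, rpl32, had 13.51, 12.91 and 11.64 in NP and 11.01, 9.87 and 8.84 in PL, and its TL was -2.78 (SE 0.15, adjusted p = 0.00467). In each replicate PL was lower, and no PL value reached an NP value. The member called above 0, rpl22, had TL values of 0.75, 2.22 and 1.06, a mean of 1.34 (SE 0.31, adjusted p = 0.0419 in limma). It was dimmer in NP, at 6.99, 4.68 and 4.89, than in PL, at 7.74, 6.90 and 5.95, and the fractions overlapped.

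Other genes of the plastid genome lay further down. They encode subunits of the photosystems, the cytochrome b6f complex, the ATP synthase and the NDH complex, the plastid RNA polymerase and a protease. Of 36 measured probe sets 27 (75%) were called below 0 and 0 above, with a median of -1.76 and replicate medians of -1.88, -1.73 and -1.30. psbA, which encodes the D1 protein of photosystem II, had 14.55, 11.85 and 11.66 in NP and 10.86, 6.63 and 8.68 in PL. The replicates differed by several log2 units in level, yet every NP value exceeded every PL value, and the TL was -3.96 (SE 0.43, adjusted p = 0.00623). psaC, an iron-sulfur subunit of photosystem I, varied more, with 10.80, 10.62 and 5.93 in NP and 7.80, 5.07 and 4.14 in PL. Its fractions overlapped, and the mean TL was -3.45 (SE 0.70, adjusted p = 0.0294). clpP (-3.43), the catalytic subunit of the Clp protease, and matK (-3.11), a splicing factor, were also called. One member, atpB, a subunit of the ATP synthase, had a mean above 0, from a TL of 0.16, 0.31 and -0.23 (mean 0.08, SE 0.15). The large subunit of Rubisco, rbcL, had -1.66, -2.06 and -0.16 and was not called (mean -1.29, SE 0.38, adjusted p = 0.0848). Plastid transcripts with a poly(A) tail, which this kind of array reads best, are decay intermediates as a rule, and the part of this in the result was not tested.

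**Figure D4:**
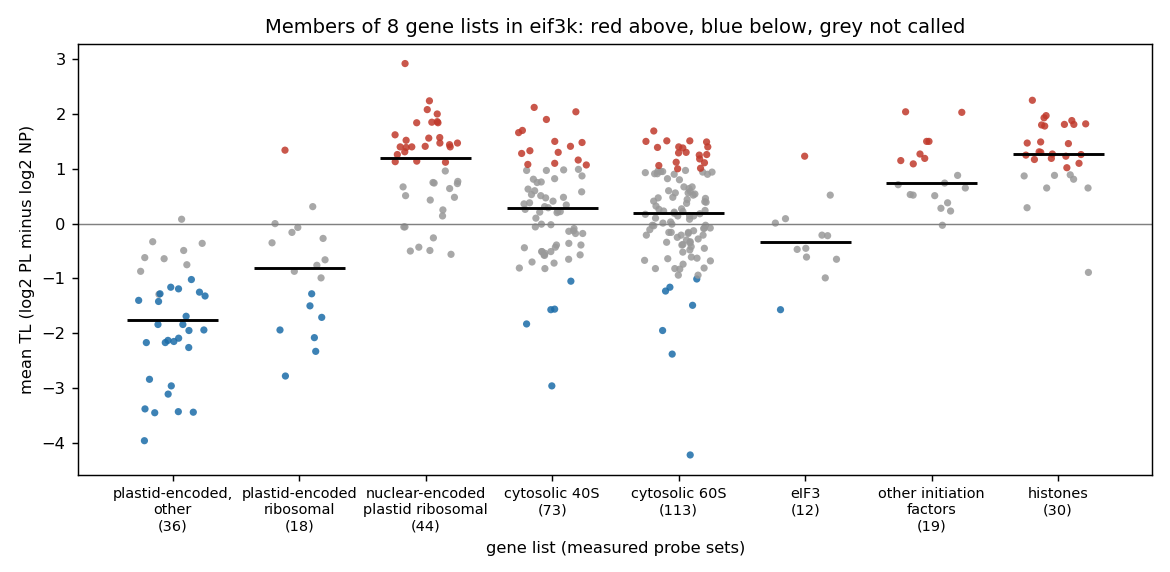
TL of each measured member (point, mean of 3 replicates) of the ribosomal protein and initiation factor groups, the other plastid-encoded genes and the histones in *eif3k*, with TL on the vertical axis, the group on the horizontal axis, a line at each group median and called members in red (above 0) or blue (below 0). Nuclear-encoded plastid ribosomal proteins centre on 1.20 and plastid-encoded ones on -0.82, and both cytosolic subunits centre close to the 0.10 of all measured probe sets.

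Many nuclear genes of photosynthesis lay on the PL side. In the group of the photosystems, the cytochrome b6f complex and the ATP synthase, into which the annotation also brought NDH subunits, the import protein TIC55-II and the antenna protein LHCB6, 16 of 37 measured members (43.2%) were called above 0 and 0 below, with a median of 0.98. The highest was ATPD, the delta subunit of the ATP synthase, with 9.64, 9.49 and 9.04 in NP, 11.56, 11.60 and 10.77 in PL and a TL of 1.92 (SE 0.14, adjusted p = 0.00467). PSB28 (1.89), a photosystem II factor, the photosystem I subunits PSAD-1 (1.68), PSAD-2 (1.46) and PSAN (1.01) were called with it, as were PnsL3 of the NDH complex, TIC55-II and LHCB6. The ferredoxin FED A, outside this group, had 1.48. Of the 17 light-harvesting proteins that bind chlorophyll, 2 were called above 0 (LHCB6, again, and LHCB4.3) and 0 below, and the median was -0.04. Their median log2 signal was 13.19, in the range where 3.12% of all probe sets were called in each direction, and the difference between the groups was not tested. Their replicate medians fell on both sides of 0, at 0.35, -0.08 and -0.42. Of 22 enzymes of tetrapyrrole and carotenoid synthesis, 10 (45.5%) were called above 0 and 1 below, among them PCB2 (2.13) and HEMC (2.08), both of chlorophyll synthesis. In the Calvin cycle and photorespiration 5 of 27 (18.5%) were above and 1 below, led by EMB3119 (1.68), a ribose-phosphate isomerase, and PGK1 (1.53), a phosphoglycerate kinase. RBCS1A, a small subunit of Rubisco, sat near the top of the signal scale in both fractions. It had 14.73, 14.71 and 14.90 in NP and 14.85, 14.80 and 14.86 in PL, and its TL was 0.06 (SE 0.11). Whether TL is compressed at such signals was not tested.

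The cytosolic translation machinery of the mutant was spread around 0. The eIF3 subunits themselves, among which eIF3k acts, had a median of -0.33 over 12 measured members, with 1 called in each direction. EIF3G1, the RNA-binding g subunit, had 7.05, 7.13 and 7.50 in NP and 8.48, 8.53 and 8.35 in PL, with no overlap, and a TL of 1.23 (SE 0.17, adjusted p = 0.0112). An m subunit, AT3G02200, was the reverse, with 8.26, 9.02 and 8.12 in NP and 6.92, 7.20 and 6.57 in PL and a TL of -1.57 (SE 0.16, adjusted p = 0.00551). TRIP-1, the i subunit, had -0.66, -1.09 and -1.22 (mean -0.99, adjusted p = 0.017), just under the size limit, and the large subunit EIF3A had -0.22 (adjusted p = 0.484).

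The other initiation factors lay higher, with 8 of 19 measured (42.1%) called above 0, 0 below and a median of 0.74. EIF4E, which binds the cap, had 5.84, 5.54 and 6.00 in NP and 7.77, 8.03 and 7.66 in PL, a TL of 2.03 (SE 0.20, adjusted p = 0.00555). An eIF1A gene, AT2G04520, which helps the small subunit to scan, had 2.04 (SE 0.19, adjusted p = 0.00514), eIF6A, a factor of the large subunit, 1.50, and the scaffold EIF4G 1.19. In each of these the PL values lay above all NP values. Elongation factors went both ways, since an EF1A gene, AT5G60390, had 1.29 and an EF1B gamma-like gene, AT1G09640, had -1.28, although both probe sets can read several transcripts.

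Poly(A)-binding proteins coat the tail of an mRNA and touch the cap complex. Of 8 PAB genes on the array 3 were measured, of which 2 were called below 0, and the other 5 lay near the floor on all arrays. PAB2 had 10.98, 11.94 and 11.52 in NP and 8.64, 8.90 and 9.59 in PL, with no overlap, and a TL of -2.44 (SE 0.24, adjusted p = 0.00544). PAB4 followed with -0.94, -1.51 and -1.11 (mean -1.19, SE 0.17, adjusted p = 0.0107). PAB8 had -0.87, -1.18 and -0.13, a mean of -0.73 (SE 0.23) that was not called (adjusted p = 0.105).

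Cytosolic ribosomal proteins had medians close to that of all measured probe sets, but a lower share called below 0 than their 11.6%. For the 40S subunit 15 of 73 measured (20.5%) were called above 0 and 5 (6.85%) below, with a median of 0.29, and for the 60S subunit 19 of 113 (16.8%) and 7 (6.19%), with a median of 0.19. Paralogs of one ribosomal protein often differed by more than that. Over 60 families with more than 1 measured member the median range of TL between the members was 0.97, and in 28 it was at least 1. In 2 families members were called in both directions. In S15a, RPS15A (S15a A) had 12.93, 13.39 and 12.93 in NP and 11.37, 11.51 and 10.89 in PL, a TL of -1.83 (SE 0.15, adjusted p = 0.00467). Its paralog rps15ab (S15a B) had 3.91, 4.09 and 3.94 in NP and 5.86, 6.46 and 5.97 in PL, a TL of 2.12 (SE 0.16, adjusted p = 0.00467), and AT5G59850 (S15a F) had 1.41. The fractions of each paralog lay apart, in opposite order. Of these, rps15ab was dim in NP, and the type to which it belongs has been placed in the mitochondrial ribosome. In S12 the member called below 0, AT1G80800 (-2.96), is annotated as a transcribed pseudogene, and AT2G32060 (S12 C) had 1.28.

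Single ribosomal protein mRNAs lay at the extremes. P0, a protein of the ribosome stalk, had its A gene AT2G40010 at -4.22 (SE 0.41, adjusted p = 0.00545), with 7.16, 8.29 and 6.43 in NP and 3.14, 2.91 and 3.17 in PL, and its B gene AT3G09200 at -1.95 (SE 0.18, adjusted p = 0.00517). Both were higher in NP in each replicate, and the A gene was close to the floor in PL. The probe set for L41, the smallest ribosomal protein, reads several gene copies (AT3G11120 among them) and had 14.68, 13.98 and 13.67 in NP and 12.39, 12.29 and 10.50 in PL, a TL of -2.38 (SE 0.29, adjusted p = 0.00775). AT2G25210 (L39 A), also a very short protein, had -1.23 (adjusted p = 0.0221), while AT3G02190 (L39 B) had 0.08. Of 26 measured probe sets for the smallest ribosomal proteins, 4 were called above 0 and 2 below. At the high end AT3G04840 (S3a A) had 9.02, 9.04 and 9.00 in NP and 11.09, 11.42 and 10.68 in PL and a TL of 2.04 (SE 0.18, adjusted p = 0.00489), against -0.54 (adjusted p = 0.124) for its paralog AT4G34670. For L24, which aids reinitiation, RPL24A had 1.26 (adjusted p = 0.00726), STV1 (RPL24B) 1.38 (adjusted p = 0.00493) and the more distant AT2G44860 (L24 C) 0.40 (adjusted p = 0.162).

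The proteasome and several metabolic groups lay on the PL side. Of 42 measured subunits of the 26S proteasome, which degrades ubiquitin-marked proteins, 17 (40.5%) were called above 0 and 0 below, with a median of 0.90. Its proteolytic 20S core made up most of these, with 12 of 22 (54.5%) and a median of 1.31. PAD1, an alpha subunit of the core, had 4.75, 4.60 and 4.75 in NP and 7.47, 7.45 and 6.97 in PL, a TL of 2.60 (SE 0.18, adjusted p = 0.00467), and PAG1 had 2.55. In both the fractions were clearly apart. The replicate medians of the whole group were 1.17, 1.10 and 0.66, lower in array batch 2.

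In glycolysis 7 of 14 measured enzymes were called above 0 and 2 below, with a median of 0.93. GAPC1 (1.57), a cytosolic glyceraldehyde phosphate dehydrogenase, and TPI (1.35), triose phosphate isomerase, were high, whereas the aldolases FBA5 (-1.64) and FBA7 (-1.20) were low and FBA8 (1.20) was high. The enzymes of one step thus lay on both sides. Aquaporins, the water channels, had 7 of 17 called above 0 (41.2%) and 0 below, with GAMMA-TIP of the vacuole at 2.49 (SE 0.19, adjusted p = 0.00467), from 6.34, 6.39 and 7.15 in NP to 9.01, 9.12 and 9.21 in PL. Among arabinogalactan and lipid transfer proteins, which are secreted to the cell wall, 20 of 35 measured (57.1%) were called above 0 and 1 below, with a median of 1.09 (0.09 over all 75 on the array), and the lipid transfer protein AT3G18280 had 2.32. Peroxidases and glutathione transferases had 13 of 38 (34.2%) above and 1 below, with GSTF3 at 2.61, and the median was 0.71 (0.00 over all 133).

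Several families of regulators had more calls below 0 than above, though not all. SAUR genes, short auxin-induced genes of growth, had 11 of 17 measured (64.7%) called below 0 and 0 above, with a median of -1.30 and replicate medians of -1.23, -1.39 and -0.95. AT4G38840, a SAUR gene, had 10.34, 10.73 and 9.30 in NP and 8.50, 8.47 and 8.15 in PL, with no overlap, and a TL of -1.75 (SE 0.24, adjusted p = 0.00997). Of 58 SAUR probe sets on the array most were not measured, and over all of them the median was -0.06. Auxin response factors and Aux/IAA repressors, which act in the same hormone response, had 5 of 17 measured (29.4%) called above 0 and 0 below. Their median was 0.22, near the 0.10 of all measured probe sets. Over all 48 on the array the median was 0.00, with 6 called above 0 and 3 below. AXR3, an Aux/IAA repressor, had 5.11, 5.10 and 4.00 in NP, 7.05, 7.42 and 5.98 in PL and a TL of 2.08 (SE 0.16, adjusted p = 0.00467).

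Transcription factor families had medians below 0, at -0.57 for ERF/AP2, -0.73 for MYB, -0.47 for bHLH, -0.47 for bZIP and -0.45 for homeobox factors. These cover the measured members, and over all probe sets of each family the medians were -0.01, 0.00, -0.07, -0.02 and 0.00. NAC factors had 1 of 14 measured (7.14%) called below 0 and 0 above. Of 23 measured ERF/AP2 factors 8 (34.8%) were called below 0 and 2 above. RAP2.4, a factor of light and ethylene responses, had 8.11, 8.73 and 8.18 in NP and 4.06, 4.23 and 4.70 in PL, a TL of -4.01 (SE 0.23, adjusted p = 0.00467). Its close relative AT1G22190 had -3.58, whereas RAP2.12 (1.72) and RAP2.2 (1.43), which act in the response to low oxygen, were the family's calls above 0. Of the MYB factors 5 of 16 were called below 0 and 0 above, with MYB59 at -2.62, of the bHLH factors 4 of 17 and 0, and of the homeobox factors 5 of 33 and 2. In the bZIP family 4 of 14 were below and 1 above, and BZIP9 had -3.23 (SE 0.16, adjusted p = 0.00467), from 11.10, 11.30 and 10.91 in NP to 7.93, 7.75 and 7.94 in PL.

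The uORF-controlled regulators carry short reading frames upstream of the main one, which ribosomes must pass or restart after. Of 15 measured, 4 (26.7%) were called below 0 and 0 above, with a median of -0.40. They were BZIP53 (-1.66), GBF6 (-1.16, known as bZIP11), bZIP2 (-1.08) and MYB34 (-1.30). The first 3 belong to the bZIP group whose translation sucrose represses through such a frame. BZIP53 had 9.80, 9.31 and 9.87 in NP and 7.90, 7.75 and 8.34 in PL, well apart, with an adjusted p of 0.00489. SAMDC, an enzyme of polyamine synthesis, had -0.26, -0.49 and -0.44 (mean -0.40, adjusted p = 0.0953), and PMEAMT, a methyltransferase of choline synthesis, had 0.93, 1.20 and 0.42 (mean 0.85, adjusted p = 0.0395), under the size limit.

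Genes of protein turnover that choose substrates had medians below 0, where the proteasome that degrades them had one above 0. F-box proteins had 6 of 20 measured called below 0 and 0 above, with a median of -0.61, and of -0.16 over all 60 on the array. RING and U-box ubiquitin ligases had 5 of 41 (12.2%) below, close to the background, but 0 above, with a median of -0.30, and of -0.05 over all 147. EBF1, an F-box protein of ethylene signalling, had 7.81, 8.09 and 6.74 in NP and 5.52, 5.39 and 5.38 in PL. Its TL was -2.12 (SE 0.28, adjusted p = 0.0094 in limma), and the auxin receptor AFB3 had -1.54 (adjusted p = 0.00607). The RING protein AT3G60300 lay lowest at -3.07 (SE 0.14, adjusted p = 0.00467).

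Clock genes, which set daily rhythms, had 4 of 7 measured called below 0 and 0 above. FKF1 (-1.96), a blue-light F-box protein that the preceding group also holds, RVE1 (-1.37), PRR7 (-1.71) and PRR9 (-1.33) were called, and CCA1 (-0.49, adjusted p = 0.0705) and LHY (0.33, adjusted p = 0.444) were not. PRR7 had 7.81, 7.71 and 3.72 in NP and 5.72, 5.42 and 2.98 in PL, and PRR9 had 7.65, 7.59 and 3.24 in NP and 6.34, 5.67 and 2.47 in PL. Both were dim in replicate 3, where the fractions came close to the floor, so their groups overlapped and the low TL came mainly from array batch 1.

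Kinases had few calls. Receptor-like kinases had 9 of 72 measured (12.5%) above and 5 (6.94%) below, and other protein kinases 6 of 129 (4.65%) and 13 (10.1%), fewer above 0 than the 15.1% of all measured probe sets. Single members were extreme, such as the cysteine-rich receptor kinase CRK18 (-3.23) and CIPK7 (-2.31), a kinase of calcium signalling. The peptide hormone genes RALFL32 (-2.51) and CLE41 (-2.24) were called as well. CLE41, which keeps vascular stem cells from differentiating, had 7.92, 7.34 and 8.11 in NP and 5.34, 5.39 and 5.92 in PL, with no overlap.

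Actin and tubulin genes, often used as reference genes, went both ways, with 3 of 14 measured called in each direction. ACT8 had 9.39, 9.89 and 10.38 in NP and 6.59, 6.74 and 7.53 in PL, a TL of -2.93 (SE 0.15, adjusted p = 0.00467). ACT7 had 8.31, 8.54 and 7.89 in NP and 9.26, 9.48 and 9.45 in PL, a TL of 1.15 (SE 0.18, adjusted p = 0.0143). Both pairs of fractions were without overlap, in opposite directions. ACT2 had -0.64, -1.09 and -0.94 (mean -0.89, adjusted p = 0.0152), under the size limit. TUA2 (-1.88) and TUA6 (-1.71), alpha tubulins, were low, and TUB7 (1.51), a beta tubulin, was high. Chaperones had 7 of 43 measured (16.3%) above and 4 (9.30%) below, close to the background, with SHD, the HSP90 of the endoplasmic reticulum, at 1.78 and cytosolic HSC70-1 at -1.91.

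Transcripts annotated as noncoding or pseudogene held some of the lowest values. Of 13 measured probe sets annotated as noncoding RNA or pseudogene, 7 were called below 0 and 0 above, with a median of -1.90. The classes differed, with 4 of 5 transcribed pseudogenes called (median -2.27) but 2 of 7 other pseudogenes (median -0.10). Means above 0 belonged to the transcribed pseudogene CYP96A7 (0.44) and, among the other pseudogenes, to AT3G43510 (0.41), MUG4 (0.25) and AT4G08220 (0.04). GUT15 had 10.27, 10.68 and 8.66 in NP and 6.21, 6.11 and 5.70 in PL, with no overlap. Sadhu4-2 (-3.37), AT1G35612 (-3.22), AT1G80800 (-2.96), ML3 (-2.71), AT3G61020 (-2.27) and AOP2 (-1.90) made up the rest of the calls. AOP2, of glucosinolate side-chain synthesis, is annotated as a pseudogene in this ecotype. The protein-coding QQS, a short protein known from Arabidopsis thaliana alone, had 9.27, 9.57 and 8.91 in NP and 6.60, 6.41 and 6.86 in PL and a TL of -2.63 (SE 0.24, adjusted p = 0.0049).

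The landscape of the mutant was set against that of WT by testing the difference in TL. The test called 0 of 22746 probe sets (0%) in limma, with 378 at an unadjusted p under 0.05, and 0 again without WT replicate 3, with 882. The median SE of this difference was 0.37 over the measured probe sets, and a call required a difference of at least 1 in size. Smaller differences could therefore not be called. At that SE a larger one could also be missed for a typical gene after adjustment over all probe sets. The count of 0 does not show that the genotypes were alike. The median difference of mutant minus WT was 0.19, and -0.01 without WT replicate 3. Mean TL correlated between the genotypes at r = 0.880, and at 0.953 with WT replicates 1 and 2 alone, as a description over probe sets. Of the 1340 probe sets called above 0 in the mutant, 1336 were above 0 in both of these WT replicates and 825 in WT replicate 3. Of the 1177 called below 0, 1164 and 1016 were below 0. The same shares over all probe sets were not counted, so these counts have no background to be read against. In WT the medians of all measured probe sets were 0.06, 0.13 and -0.44 in replicates 1, 2 and 3. WT replicates 1 and 2 also share array batch 1 with mutant replicates 1 and 2.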

How the data were processed

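The log2 signals per probe set were deposited by the authors, who had background-corrected and normalized the arrays together. The submitters' processing notes name GCRMA and the methods of the study RMA, and neither version nor genome build is given in the sources used here. Deposited log2 signals ran from a floor of 2.33 to 15.55. The series matrix holds the same signals (largest difference 0). The 6 deposited columns of per-replicate translation states were not used, and TL was formed from the signals. PL and NP are pools of the same gradient, and same-numbered PL and NP arrays of *eif3k* deviated together from their group means (r = 0.658, 0.439 and 0.653 over probe sets), so they were paired. Arrays carry no read depth, and the 3 replicates limit the precision. The study describes replicates as biological, while the labels name no separate cultures, so p-values may measure partly technical spread. No 2 arrays were identical.

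TL was tested with limma 3.58.1 under R 4.3.3 (lmFit, eBayes with trend and robust prior, two-sided), an intercept against 0 on the 3 TL values, and Benjamini-Hochberg adjustment over 22746 probe sets, with those at the floor given a p of 1. The prior degrees of freedom were 3.15 (median). The code was checked on simulated independent noise with known shifts, which had no array batches and is no support for the calls. Errors are SE from this fit. Probe sets were named from the deposited annotation, and 22162 were found in the RefSeq gene table. Of all probe sets, 1061 may read several transcripts and were kept. Alternatives changed the variance model, the pairing, the samples, the array batch term, the scaling and the filters.

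The members and the 56 gene lists were chosen with earlier results of these data known, and a few stray members were removed after values were seen. The 12 highest and 12 lowest genes were those called with a mean log2 signal of at least 5 in both fractions, 1 nuclear locus and no shared probe set. In each list the 2 highest and 2 lowest measured members could be named, and eIF3, L24, L41, PAB, uORF and reference genes in any case. Ribosomal protein paralogs, pseudogenes, LHCB6, PnsL3, TIC55-II, EIF4G, eIF6A, clpP, matK, TPI, FBA8, AFB3, ACT7 and TUA6 were named after their values were seen. No sequence or coordinate is given. Plots were drawn with matplotlib 3.10.9.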

Additional observations from a re-analysis of the deposited data

How the results depend on the processing

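The counts of called mRNAs depended on how spread was estimated from 3 TL values. Against 1340 above 0 and 1177 below, limma's eBayes with no trend and no robust prior called 180 and 121, and one fit over both genotypes called 822 and 875. Without a replicate the counts ranged from 0 to 0 in both directions, and they were 0 and 0 with the array batch as a term (6466 probe sets at an unadjusted p under 0.05), where fewer residual degrees of freedom are left. Unpaired, with no replicate block, 1090 and 922 were called. Without a minimum change there were 2226 and 1886. Trend without robust prior, renewed quantile normalization, centring, a filter at a mean of 5, leaving out floor probe sets and leaving out shared probe sets gave 1148 to 1370 above 0 and 881 to 1436 below. The comparison of TL between genotypes called 0 in each setting run, the replicate block included (363 at an unadjusted p under 0.05).

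Group medians over all members moved as follows. Quantile normalization gave 0.12 for 40S proteins, 0.02 for 60S proteins, -0.17 for eIF3 and -0.92 for plastid-encoded ribosomal proteins, and centring gave 0.14, 0.03, -0.21 and -0.91 for these and -0.16 for SAUR genes. With measured members only the medians were -1.30 for SAUR genes, -0.33 for eIF3 and -1.76 for other plastid-encoded genes. For plastid-encoded ribosomal proteins the batch term gave -0.92, and leaving out a replicate gave -1.03 to -0.74. Over the measured members the sign of the median turned for light-harvesting proteins (0.16 without replicate 3) and cytochrome P450s (0.07 without replicate 2). Low signals limit TL, since near the floor a ratio is compressed.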

Other observations

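Groups not described above were mostly closer to the background. Of 28 measured nuclear-encoded subunits of the mitochondrial respiratory chain, 5 were called above 0 and 2 below, with SDH4, a subunit of succinate dehydrogenase, at 1.79 and AT2G01090 at -1.83, and the median was 0.66. Nuclear-encoded ribosomal proteins of the mitochondrion had 3 of 30 above and 1 below with a median of 0.23, where those of the plastid had a median of 1.20, and the difference between the groups was not tested. Aminoacyl-tRNA synthetases, which charge tRNAs, had 7 of 31 above and 1 below. Disease resistance proteins had 6 of 16 measured called below 0 and 0 above with a median of -0.52 (0.00 over all 180 on the array), and cytochrome P450s 4 of 51 below and 2 above with a median of -0.06.

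Replicate 3 of the mutant differed in signal from replicates 1 and 2 for some seed and clock genes. CRA1, a seed storage globulin, had log2 signals of 2.35, 2.33 and 5.25 in NP and 3.65, 2.33 and 8.11 in PL of replicates 1, 2 and 3, and its TL of 1.39 was not called (adjusted p = 0.162 in limma). ELF4, an evening gene of the clock, had 2.57, 2.60 and 5.92 in NP, and the morning gene CCA1 had 9.11, 9.09 and 6.94. Levels could also differ within array batch 1, where the plastid-encoded rpl20 had 9.37 and 6.74 in NP of replicates 1 and 2, and 4.75 followed in replicate 3. Replicate 3 is also the only replicate of array batch 2, so sample and batch cannot be told apart here.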
